A study of Mus musculus with 9 samples.

Results

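The hippocampal RNA of wild-type mice in the group named CRS-WT-DR5-12D was compared with that of the group named CRS-WT. These 2 groups hold 6 of the 9 libraries of the series, chosen by their group labels alone, with 3 libraries each. The remaining 3 libraries, CRS-NKAα1+/-, come from mice with 1 intact copy of the gene for the α1 subunit of the sodium pump, and their values are given only to place the CRS-WT-DR5-12D group. CRS is an abbreviation commonly used for chronic restraint stress, and it stands in the names of all 3 groups. Neither CRS nor DR5-12D is written out in the labels, which also leave out dose, time of treatment, strain, sex, age and what CRS-WT mice received in place of DR5-12D. All libraries were made from total RNA of freshly taken ventral hippocampus. Whether each library is 1 mouse is not stated, so p-values rest on library-to-library spread, part of which may be technical.

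Na,K-ATPase, the sodium pump, exchanges sodium for potassium across the cell membrane. Its α1 subunit is also known as a signalling partner of the kinase Src and of Shc adaptor proteins. DR5-12D is known as a monoclonal antibody against an extracellular stretch of the α subunit called the DR region. In the hippocampus, repeated stress is known to act on microglia, the resident macrophages of the brain, which make most of the complement C1q found there.

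Each gene was measured in FPKM, a fragment count divided by gene length and by library depth. A total of 17753 genes had a mean of at least 0.5 FPKM over the 9 libraries and were tested on log2(FPKM + 1). Log2 fold changes below are CRS-WT-DR5-12D minus CRS-WT on that scale, given with their standard error, and the added 1 shrinks those of low values. The depth implied by the values was 26215034, 18988995 and 16308410 fragments in CRS-WT-DR5-12D and 27323377, 15117444 and 21688550 in CRS-WT. The neuronal genes Snap25, at 288, 212 and 173 FPKM in CRS-WT-DR5-12D and 168, 186 and 173 in CRS-WT, and Slc17a7, at 257, 205 and 202 against 193, 216 and 200, were high in all 6 libraries. The choroid plexus gene Ttr stayed at or below 2.55 FPKM in CRS-WT-DR5-12D and 6.52 in CRS-WT. Prox1, the transcription factor of dentate gyrus granule cells, stood at 1, 10.2 and 9 FPKM in CRS-WT-DR5-12D and at 11.6, 9.96 and 7.92 in CRS-WT. CRS-WT-DR5-12D replicate 1 thus held less dentate gyrus RNA by this marker than the other 5 libraries, and list medians below are also given without it. Its low values were not limited to the dentate gyrus. Its list means for pyramidal cell and ventral hippocampus genes, described below, were also the lowest of the 6 libraries. CRS-WT differed in another way, with embryonic and fetal transcripts above CRS-WT-DR5-12D in every library and highest in replicate 1. Leaving out CRS-WT replicate 1 therefore does not remove this difference between the groups. The embryonic globin gene Hbb-y was at 1.21, 0.499 and 0.872 FPKM in CRS-WT-DR5-12D and at 195, 22.8 and 8.16 in CRS-WT, and the fetal RNA H19 was at 0.217, 0.235 and 0.125 against 43.4, 3.12 and 1.57. Hbb-y and H19 were picked with their values in view, and their part in the results was not tested. In bulk tissue, fewer cells of a type and less RNA per cell cannot be told apart.

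Across all genes, 5 rose in CRS-WT-DR5-12D (0.0282% of the genes tested) and 0 fell (0.0%), by limma with Benjamini-Hochberg adjustment over all genes at an adjusted p under 0.05. At an unadjusted p under 0.05 there were 1123 higher genes (6.33%) and 1191 lower ones (6.71%), and limma-voom on recovered fragments called 0 genes. The 5 genes that rose are 1 signalling adaptor, Shc4, and 4 poorly described transcripts, Gm43701, Gm29629, 4930535I16Rik and Gm24187. Shc4 encodes a member of the Shc family, which couples activated receptors to the Ras pathway (ENSMUSG00000035109, chr2:125627447-125724148 on GRCm38, minus strand). Its level was 11.3, 10.8 and 11 FPKM in CRS-WT-DR5-12D and 6.24, 6.55 and 6.42 in CRS-WT. All 3 libraries of the first group lay within 0.5 FPKM of each other and above all of the second. The log2 fold change was 0.70 ± 0.078 (limma adjusted p 0.047), resting on 1489 to 2437 fragments in CRS-WT-DR5-12D libraries and 818 to 1408 in CRS-WT libraries. In Shc4, 6.38% of the exon bases lie opposite the gene Eid1, which had 121, 121 and 96.0 FPKM against 94.7, 105 and 102 and so overlapped between the groups.

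The antisense RNA Gm43701 (chr5:36748618-36750437, plus strand) showed the largest difference of the 5. It had 7.41, 8.62 and 10.5 FPKM in CRS-WT-DR5-12D and 0.374, 0.846 and 0.354 in CRS-WT, where 3 to 5 fragments were read per library. Its log2 fold change was 2.69 ± 0.23 (limma adjusted p 0.0258). It lies across from Bloc1s4, a gene of lysosome-related organelle formation, with 8.44% of its exon bases opposite, and Bloc1s4 itself was at 7.79, 9.72 and 10.5 FPKM against 6.58, 6.96 and 7.03. The antisense RNA Gm29629 (chr1:132139504-132142800, plus strand) had 6.62, 6.28 and 8.42 FPKM in CRS-WT-DR5-12D and 0.569, 1.54 and 1.08 in CRS-WT, a log2 difference of 1.99 ± 0.19 (limma adjusted p 0.0401). Of its exon bases, 22.3% lie opposite the kinase gene Cdk18, whose groups overlapped, with 9.25, 5.72 and 7.95 FPKM against 4.45, 5.44 and 6.55. For 4930535I16Rik (chr4:123917504-123918022, minus strand) the values were 12.3, 12.6 and 11.2 FPKM in CRS-WT-DR5-12D and 3.38, 3.44 and 4.53 in CRS-WT, a log2 difference of 1.45 ± 0.15 (limma adjusted p 0.047). This gene has 50.9% of its exon bases opposite Rragc, which encodes a GTPase of the nutrient-sensing pathway and had 17.1, 15.4 and 13.4 FPKM against 12.4, 13.4 and 13.1. The short microRNA model Gm24187 (chr13:9834469-9834525) had 750, 660 and 901 FPKM in CRS-WT-DR5-12D and 103, 89.4 and 196 in CRS-WT, a log2 difference of 2.64 ± 0.29 (limma adjusted p 0.047). In all 5 genes every CRS-WT-DR5-12D library lay above every CRS-WT library. Bloc1s4, Cdk18, Rragc and Eid1 are named as strand partners, outside the rule for naming genes. No source used here states the strand setting of the counting, so fragments of antisense genes and of the genes across from them cannot be told apart.

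The 5 calls depended on the libraries in the fit. No gene was called without CRS-WT-DR5-12D replicate 1, 2 or 3 in turn or without CRS-WT replicate 1, and 2 were called without CRS-WT replicate 2 or 3. Omission of CRS-NKAα1+/- libraries, which enter only the estimate of the spread, 1 at a time, gave 4 to 21 calls. Shc4 kept a log2 fold change between 0.68 and 0.72 in the fits that leave out 1 library.

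**Figure D1:**
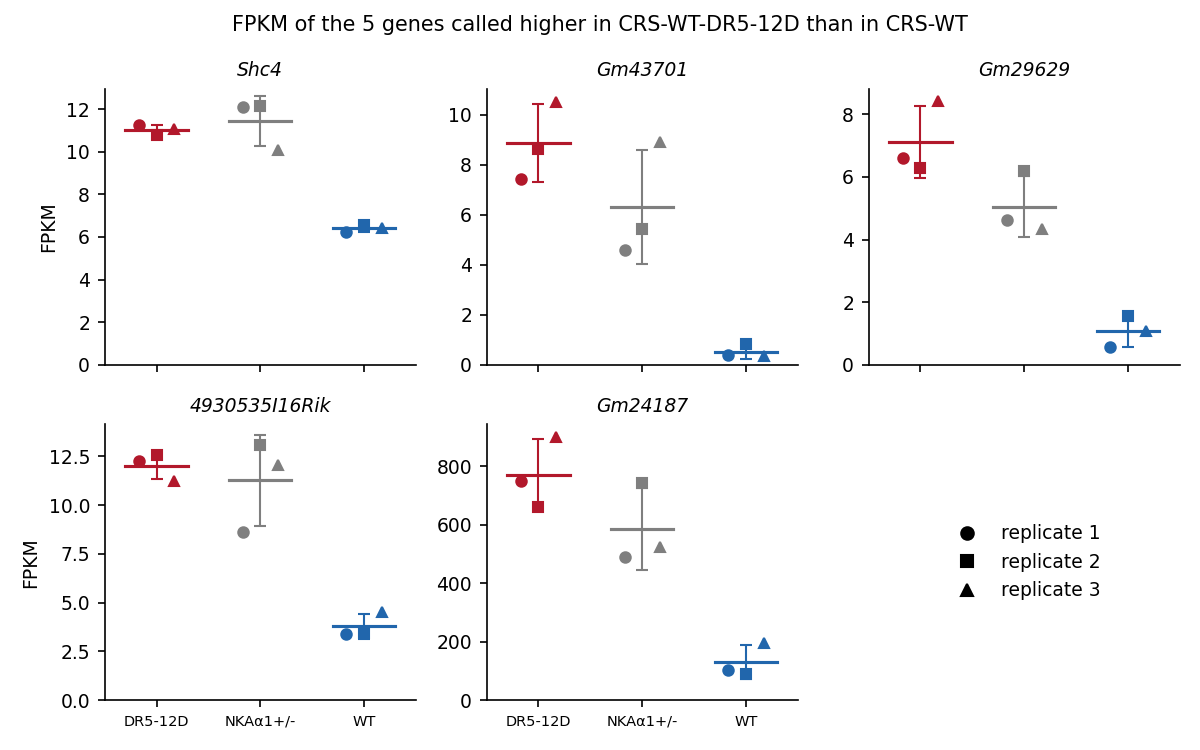
FPKM (linear axis from 0) of the 5 genes called higher in the comparison of CRS-WT-DR5-12D and CRS-WT, in each of the 9 libraries; point shapes are replicates, lines are group means and error bars the SD (n = 3). The CRS-WT-DR5-12D and CRS-NKAα1+/- points lie above all CRS-WT points in each panel, with Shc4 at 10.8 to 11.3 FPKM in CRS-WT-DR5-12D and 6.24 to 6.55 in CRS-WT.

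Short of the called genes, classes of noncoding RNA differed in how many members lay above CRS-WT. Every CRS-WT-DR5-12D library lay above every CRS-WT library in 11.4% of all genes tested, and below in another 11.4%; under TPM scaling 187 genes lay above and 8682 below. Among 1208 antisense RNAs the shares were 19.7% above and 7.04% below, and among 65 RNAs from bidirectional promoters they were 33.8% and 3.08%. Short RNA classes had smaller shares above, with 7.58% of microRNA models (6.06% below), 5.03% of snoRNAs (2.52% below) and 7.32% of snRNAs (8.94% below). Of 13457 protein-coding genes, 10.6% lay above and 12.4% below. Without CRS-WT-DR5-12D replicate 1, where fewer libraries leave more genes without overlap, the shares above and below were 27.9% and 11.4% for antisense RNAs, 40.0% and 3.08% for bidirectional promoter RNAs and 16.1% and 16.6% for protein-coding genes. Over all 958 antisense RNAs with a tested gene across from them, the median log2 fold change was 0.08, and that of the genes across from them was 0.0056. Of those genes, 10.2% lay entirely above CRS-WT and 10.6% below. Across from the 201 antisense RNAs that lay entirely above, picked by their values, the median was 0.089. Of the genes there, 22.9% lay entirely above and 3.48% below, so the 2 strands were not independent. Examples named by the rule are Usp46os2, at 5.44, 5.5 and 5.14 FPKM in CRS-WT-DR5-12D and 1.97, 3.22 and 2.72 in CRS-WT, and Cdk19os, at 2.51, 2.16 and 2.67 against 1.14, 1 and 1.07. Their log2 fold changes of 0.82 ± 0.12 and 0.73 ± 0.12 missed the threshold (limma adjusted p 0.0908 and 0.0921). Other higher values short of the threshold were those of Teddm2, with 37.5, 30.6 and 32.6 FPKM against 18.4, 16.1 and 13.8 (log2 fold change 1.02 ± 0.14, limma adjusted p 0.0859), Fgf20, a fibroblast growth factor (0.755 ± 0.122), and Mpc1, a subunit of the mitochondrial pyruvate carrier (0.50 ± 0.084). These 3 also showed no overlap between the groups, like Tmem160, Fam151b and the antisense RNA CT030161.2, at 5.71, 5.88 and 5.59 FPKM against 2.29, 2.34 and 3.32. Among lower genes outside the lists, Grrp1 had 1.38, 1.07 and 2.16 FPKM against 6.06, 5.76 and 6.91 (−1.53 ± 0.22, limma adjusted p 0.0908). Rrbp1, a ribosome-binding protein of the endoplasmic reticulum, had 6.12, 5.44 and 6.16 against 9.88, 9.53 and 9.62 (−0.63 ± 0.092), and the myeloid receptor gene Cd300c2 had 3.83, 3.18 and 2.65 against 8.96, 8.56 and 7.38 (−1.15 ± 0.17). Uaca and the phospholipase gene Pla1a were low in both groups and also did not overlap.

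A set of 36 gene lists for cell types and pathways was then described by the members' log2 fold changes, beside a median of 0.0071 over all genes. Of all genes, 51.6% had a log2 fold change above 0 and 48.4% below. In 11.4% of all genes every CRS-WT-DR5-12D library lay above every CRS-WT library, and in another 11.4% below. The counts of members entirely above or below are to be read beside these shares. In 24 lists the median was below 0. The lowest medians belonged to Fc receptors and their partners, complement, microglia and class I antigen presentation, and the highest to immediate early genes and cholesterol synthesis. No member of any list passed the adjusted threshold except Shc4. A dentate gyrus covariate, the mean of the granule cell list in each library, and limma-voom were run as alternatives, and their medians are given beside several lists that they moved by over 1.5 times. The members of the lists overlap in part and were chosen with results of these data known, so the counts below describe them and were not tested.

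**Figure D2:**
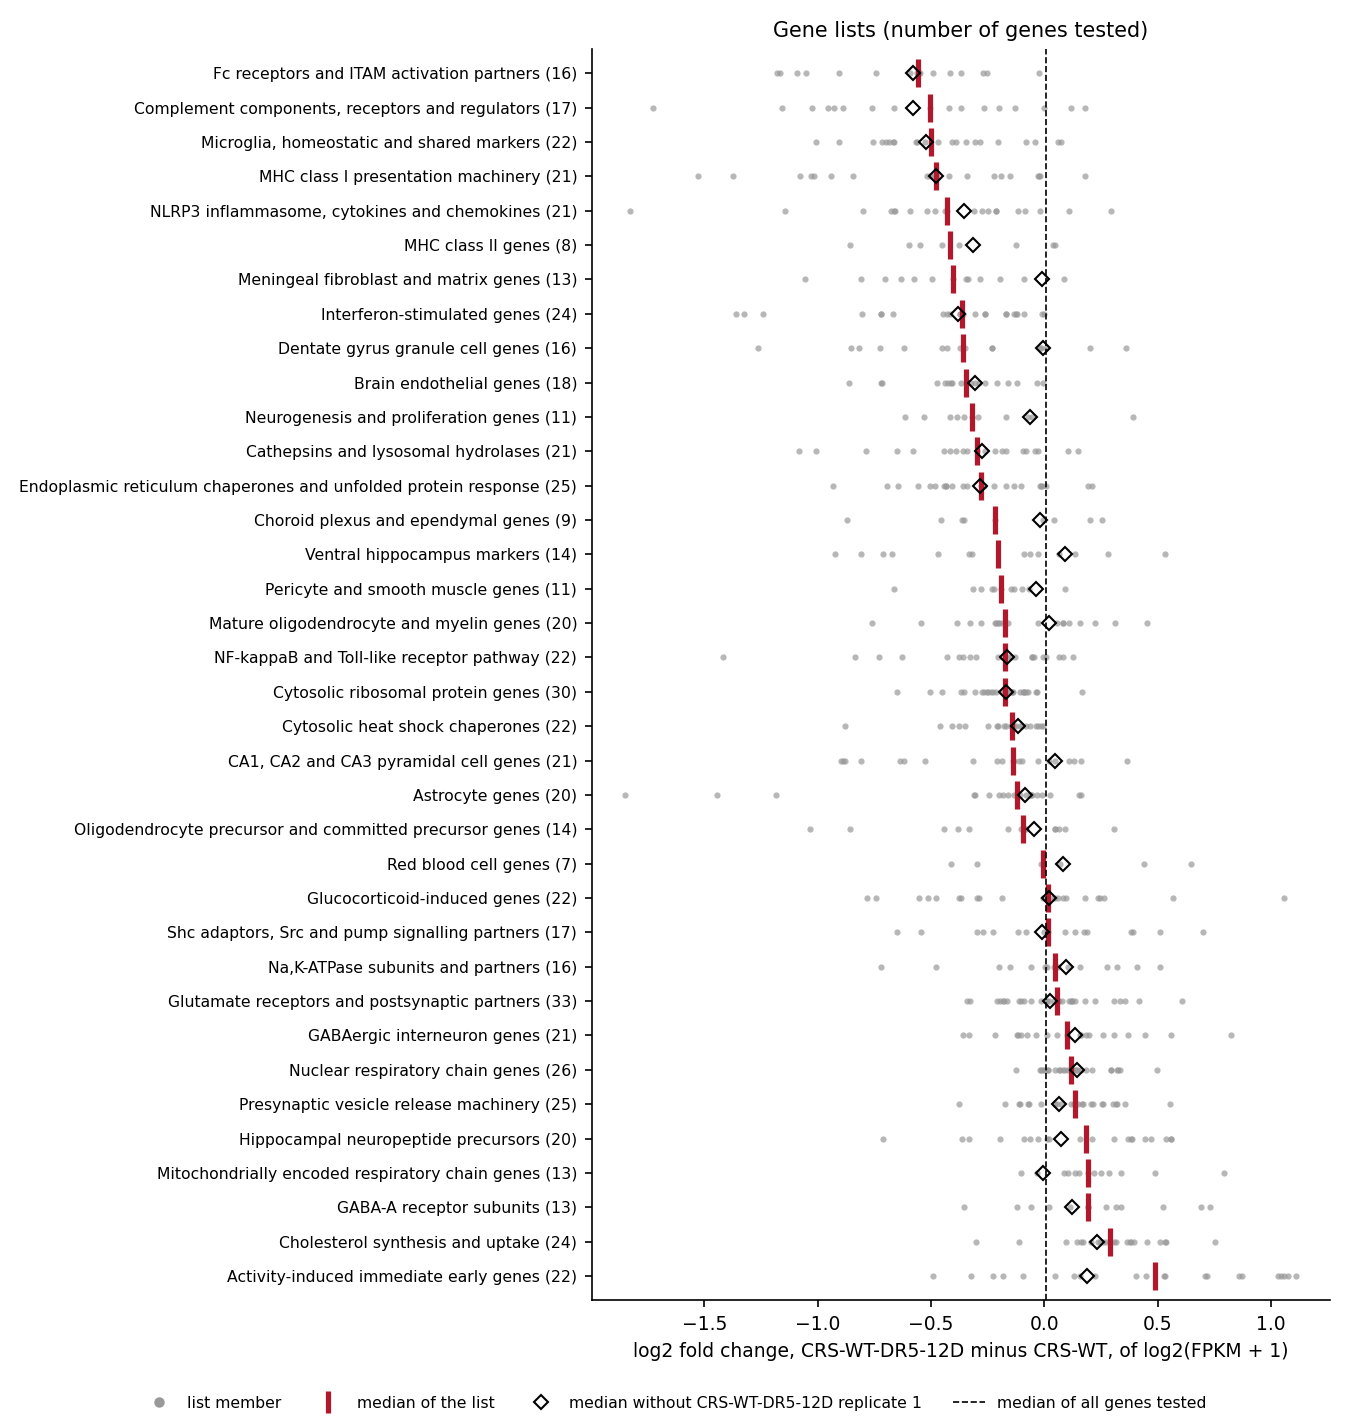
Log2 fold change (CRS-WT-DR5-12D minus CRS-WT, of log2(FPKM + 1)) of each member of the 36 gene lists as grey points, with the list median as a red bar, the median without CRS-WT-DR5-12D replicate 1 as an open diamond and the median of all genes as a dashed line. The diamonds stay with the bars for the immune and endoplasmic reticulum lists and move to near 0 for the granule cell and meningeal lists. Under TPM scaling all lists shift down, and the cholesterol median becomes −0.05, against −0.33 for all genes.

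Complement genes were lower in CRS-WT-DR5-12D, led by the 3 chains of C1q, the protein that starts the classical cascade. C1qa (chr4:136895917-136898803) had 63.7, 48.1 and 56.4 FPKM in CRS-WT-DR5-12D and 125, 146 and 108 in CRS-WT. C1qb had 66.5, 51.0 and 52.3 against 123, 127 and 98.8, and C1qc had 32.2, 25.0 and 27.9 against 54.4, 64.3 and 46.7. In each of the 3 genes the highest CRS-WT-DR5-12D library was below the lowest CRS-WT library. The log2 fold changes were −1.16 ± 0.18, −1.03 ± 0.16 and −0.93 ± 0.19, with limma adjusted p of 0.0921, 0.0908 and 0.139, short of the threshold. C4b, the next component of the cascade, stood at 2.19, 7.15 and 5.93 FPKM against 16.2, 21.9 and 15.6 (−1.73 ± 0.38, limma adjusted p 0.155). Over the 17 complement genes tested the median was −0.50 (−0.58 without CRS-WT-DR5-12D replicate 1, −0.52 without CRS-WT replicate 1, and −0.95 both with a pseudocount of 0.1 and by limma-voom), with 12 members entirely below CRS-WT and 1, Cd59a, entirely above. Cd59a encodes an inhibitor of the terminal complement pore and had a log2 fold change of 0.18; it was picked with its value in view.

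Fc receptors bind antibodies on microglia and other myeloid cells. Their list also holds activation partners and other genes that are not Fc receptors, such as Apoe. It had the lowest median in the main fit, −0.56 over 16 genes (−0.58 without CRS-WT-DR5-12D replicate 1), with 11 members entirely below CRS-WT and 0 above. The complement median was lower with a pseudocount of 0.1 (−0.95 against −0.73) and by limma-voom (−0.95 against −0.78). The activating receptor Fcgr3 had 10.8, 7.89 and 7.66 FPKM in CRS-WT-DR5-12D and 18.5, 25.6 and 18.8 in CRS-WT. Its log2 fold change was −1.17 ± 0.15 (limma adjusted p 0.0811), the smallest p among lower genes. The inhibitory receptor Fcgr2b was lower as well, with 0.725, 0.582 and 0.519 FPKM against 1.44, 2.22 and 1.47 (−0.74 ± 0.18, limma adjusted p 0.177). Fcgrt, the receptor that recycles antibody in cells and is made mostly by endothelium and macrophages, had 5.73, 6.86 and 7.03 FPKM against 10.6, 10.6 and 8.91 (−0.55 ± 0.093, limma adjusted p 0.101). Apoe, the main lipid carrier of the brain, stood at 756, 894 and 957 FPKM against 1257, 1339 and 1219 (−0.55 ± 0.13, limma adjusted p 0.177).

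Microglial marker genes had a median of −0.50 over 22 genes, −0.52 without CRS-WT-DR5-12D replicate 1 and −0.47 without CRS-WT replicate 1. Of these, 13 were entirely below CRS-WT (59.1%, against 11.4% of all genes) and 0 above. Csf1r, the receptor on which microglia depend for survival, had 22.7, 18.3 and 17.1 FPKM in CRS-WT-DR5-12D and 32.0, 36.9 and 28.2 in CRS-WT (−0.72 ± 0.15, limma adjusted p 0.139). Trem2, a lipid-sensing receptor, had 4.58, 3.87 and 3.45 against 7.54, 7.41 and 6.17 (−0.70 ± 0.15), and the microglial gene Tmem119 had 10.6, 8.30 and 10.5 against 18.1, 19.1 and 14.6 (−0.76 ± 0.18). These 3 genes did not overlap between the groups. Other markers did: Cx3cr1, the fractalkine receptor, had 12.6, 9.84 and 9.30 FPKM against 15.1, 16.1 and 11.8, and P2ry12, a purinergic receptor of surveying microglia picked with its values in view, had 13.8, 12.1 and 7.95 against 10.6, 12.2 and 8.66. The summed FPKM of the list was 314, 268 and 232 in CRS-WT-DR5-12D and 425, 458 and 367 in CRS-WT. Lysosomal enzymes followed, with a median of −0.30 over 21 genes (−0.28 without CRS-WT-DR5-12D replicate 1), 13 entirely below and 1 entirely above. The protease Ctss, abundant in microglia, had 60.7, 52.3 and 40.8 FPKM against 108, 106 and 94.7 (−1.01 ± 0.15, limma adjusted p 0.0908). Ctsh, another cysteine protease, had 2.60, 2.90 and 2.62 against 6.39, 8.03 and 6.25 (−1.08 ± 0.14, limma adjusted p 0.0811), while Ctsl had 11.2, 11.1 and 11.9 against 16.5, 16.4 and 13.9 (−0.42 ± 0.080).

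**Figure D3:**
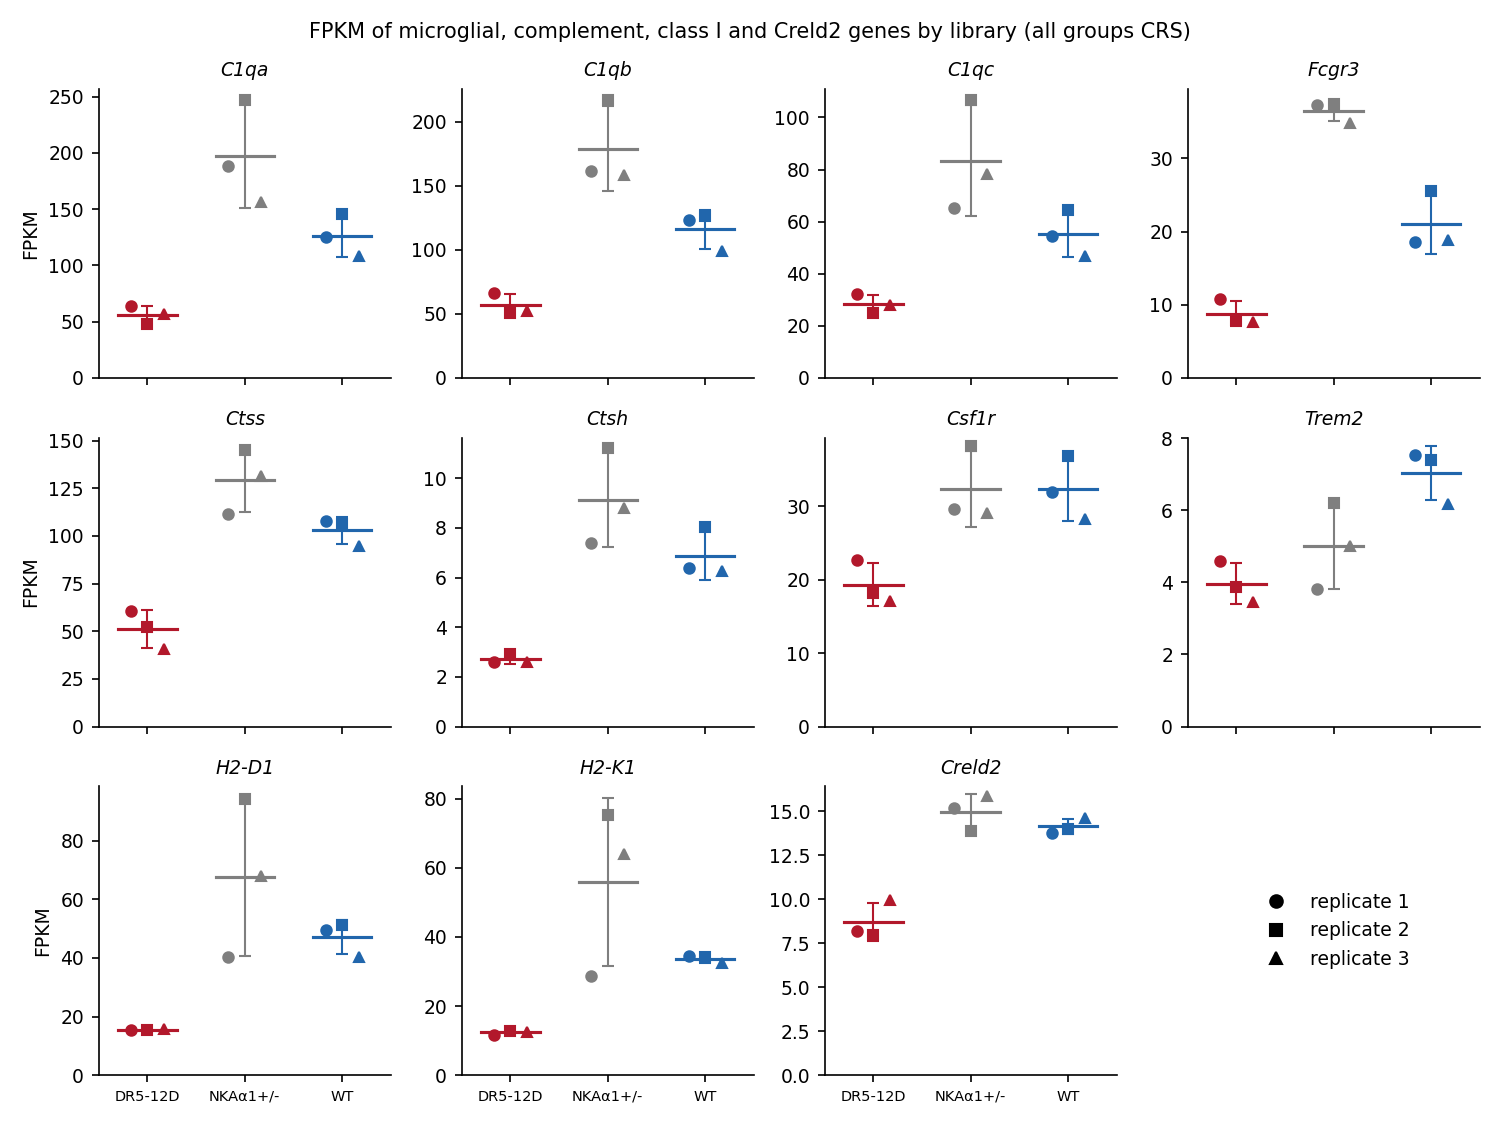
FPKM (linear axes from 0) of complement, Fc receptor, microglial, lysosomal and class I genes and of the endoplasmic reticulum gene Creld2 in each library; point shapes are replicates, lines are group means and error bars the SD (n = 3). In every panel the 3 CRS-WT-DR5-12D points lie below the 3 CRS-WT points, such as 48.1 to 63.7 against 108 to 146 FPKM for C1qa.

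Class I antigen presentation, the display of peptides from inside the cell to T cells, was lower with a median of −0.48 over 21 genes (−0.48 without CRS-WT-DR5-12D replicate 1, −0.42 without CRS-WT replicate 1), and 14 members lay entirely below CRS-WT and 0 above. The heavy chain H2-D1 (chr17:35262730-35267499) had 15.4, 15.5 and 15.7 FPKM in CRS-WT-DR5-12D and 49.6, 51.2 and 40.4 in CRS-WT. H2-K1 had 11.7, 12.8 and 12.6 against 34.5, 34.1 and 32.3, and its light chain partner B2m, picked with its values in view, had 170, 143 and 137 against 309, 280 and 226. The log2 fold changes of the heavy chains were −1.53 ± 0.26 and −1.38 ± 0.30 (limma adjusted p 0.0980 and 0.142). H2-D1 and H2-K1 are close relatives in sequence, so fragments may be split between them and their separate values are uncertain. Of the class II genes, which present outside peptides on myeloid cells, 4 of 8 lay entirely below CRS-WT (median −0.42, −0.31 without CRS-WT-DR5-12D replicate 1, −0.25 with the dentate gyrus covariate, −0.79 by limma-voom). Cd74, the class II chaperone, had 0.758, 1.27 and 2 FPKM against 3.19, 2.63 and 3.70.

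Interferon-stimulated genes had log2 fold changes below 0 in 24 of 24 members (22 without CRS-WT-DR5-12D replicate 1), against 48.4% of all genes. Their median was −0.36 (−0.38 without CRS-WT-DR5-12D replicate 1, −0.29 without CRS-WT replicate 1, −0.73 by limma-voom), and 15 lay entirely below CRS-WT. Gbp2 and Gbp3, GTPases of the antimicrobial response, had 0.788, 1.11 and 0.950 FPKM in CRS-WT-DR5-12D and 3.08, 5.10 and 3.63 in CRS-WT, and 0.794, 0.790 and 0.601 against 2.14, 2.03 and 1.89. Ifitm3, a membrane protein that blocks viral entry, had 11.8, 17.4 and 17.3 against 44.2, 39.7 and 29.8, and Ifit1, which binds viral RNA, had 0.675, 0.773 and 0.485 against 1.53, 1.27 and 0.937. None of the 4 overlapped between the groups, and their log2 fold changes of −1.32 ± 0.38, −0.81 ± 0.22, −1.24 ± 0.37 and −0.45 ± 0.21 missed the threshold (limma adjusted p 0.222, 0.201, 0.228 and 0.409). The promoter windows of these 4 genes (250 bases before to 50 after the start in RefSeq, GRCm38.p6) hold the core of the interferon-stimulated response element, TTTC and TTTC spaced by any 2 bases, on either strand. Of 21 listed genes with a window, 13 hold it (61.9%), against 3.99% of all 27025 genes with a window. The median over the 13 was −0.445, and that over the 8 without it was −0.31. In the class I list 5 of 19 hold it (26.3%), with a median of −0.19, against −0.50 over the 14 without it. Among all tested genes, 409 hold it, with a median of −0.039, listed genes included. The matches of Gbp2, Gbp3, Ifitm3 and Ifit1 are given with 20 bases on either side, in the orientation in which the motif reads. Capitals mark the fixed letters of the motif.
Gbp2, chr3:142620584-142620633, plus strand: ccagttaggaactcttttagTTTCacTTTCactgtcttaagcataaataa
Gbp3, chr3:142559979-142560028, plus strand: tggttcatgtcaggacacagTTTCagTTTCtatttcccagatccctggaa
Ifitm3, chr7:141010696-141010745, plus strand: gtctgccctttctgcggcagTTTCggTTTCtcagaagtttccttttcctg
Ifit1, chr19:34640765-34640814, plus strand: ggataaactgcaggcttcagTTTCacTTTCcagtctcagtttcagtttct
The motif lies 59, 45 and 104 bases before the start of Gbp2, Gbp3 and Ifit1 and 19 bases after that of Ifitm3. A match to these letters is no evidence that a factor was bound there. The motif was chosen after the values of the lists were seen.

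Among inflammasome, cytokine and chemokine genes the median was −0.43 over 21 genes (−0.36 without CRS-WT-DR5-12D replicate 1, −0.17 with the dentate gyrus covariate, −0.77 by limma-voom), with 11 entirely below CRS-WT and 0 above. The T cell chemokine Ccl5 had 0.636, 0.823 and 1.41 FPKM in CRS-WT-DR5-12D and 6.29, 6.96 and 4.51 in CRS-WT (−1.83 ± 0.55, limma adjusted p 0.235). Casp1, the protease of the inflammasome, had 1.27, 1.2 and 1.64 against 1.96, 2.56 and 2.40 (−0.48 ± 0.14), and the colony-stimulating factor Csf1 had 3.83, 5.49 and 4.85 against 8.79, 7.84 and 6.29 (−0.59 ± 0.19). The cytokine Il1b, picked with its values in view, was low in both groups and overlapped, with 0.520, 0.304 and 0.322 FPKM against 0.557, 1.32 and 0.387. For NF-kappaB and Toll-like receptor genes the median was −0.17 over 22 genes (−0.16 without CRS-WT-DR5-12D replicate 1, −0.097 with the dentate gyrus covariate, −0.32 by limma-voom), with 7 entirely below and 0 above. The subunit gene Nfkb2, itself induced by the pathway, had 0.742, 0.929 and 0.932 FPKM against 2.49, 2.17 and 1.68 (−0.73 ± 0.12, limma adjusted p 0.0980), and the adaptor Myd88 had 2.32, 2.45 and 2.48 against 3.61, 3.26 and 3.28 (−0.36 ± 0.094). The largest gaps in this field were in acute-phase genes picked with their values in view. Saa3, a serum amyloid protein, had 0.747, 0.606 and 0.612 FPKM against 16.7, 41.9 and 13.1 (−3.74 ± 0.66, limma adjusted p 0.105). S100a9, a neutrophil calcium-binding protein, had 0.585, 1.01 and 1.06 against 5.82, 18.9 and 10.7 (−2.64 ± 0.62, limma adjusted p 0.171), resting on 8 to 10 fragments per CRS-WT-DR5-12D library. Both genes also spread widely among the CRS-NKAα1+/- libraries, where Saa3 was at 17.4, 118 and 25.9 FPKM.

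Chaperones of the endoplasmic reticulum, which fold secreted and membrane proteins and are induced together when unfolded proteins build up, were lower in CRS-WT-DR5-12D. The median was −0.28 over 25 genes, and again −0.28 without CRS-WT-DR5-12D replicate 1 and −0.26 without CRS-WT replicate 1. Of the 25, 16 lay entirely below CRS-WT and 0 above. Creld2 (chr15:88819646-88826683), a secreted chaperone-like factor, had 8.19, 7.99 and 9.93 FPKM in CRS-WT-DR5-12D and 13.8, 14.0 and 14.6 in CRS-WT (−0.65 ± 0.089, limma adjusted p 0.0859). Hspa5, the central chaperone known as BiP, had 48.9, 45.2 and 59.6 against 91.8, 83.7 and 74.5 (−0.70 ± 0.14, limma adjusted p 0.139). Sdf2l1, a BiP co-factor, had 7.23, 6.08 and 10.5 against 15.5, 17.7 and 14.2 (−0.93 ± 0.19, limma adjusted p 0.139), and the co-chaperone Dnajb11 had 12.3, 12.0 and 13.2 against 18.4, 17.2 and 16.3 (−0.44 ± 0.070, limma adjusted p 0.0921). In all 4 the groups were apart. The lectin chaperone Calr had 104, 98.5 and 123 against 172, 149 and 141 (−0.50 ± 0.10). Of the stress transcription factor genes in the list, Xbp1 lay entirely below CRS-WT (−0.48), while Ddit3 (−0.01), Atf6 (0.19, and 0.02 without CRS-WT-DR5-12D replicate 1) and Atf4 (0.21) overlapped. Of the degradation genes, Derl1 (−0.22, and −0.10 without CRS-WT-DR5-12D replicate 1) lay entirely below, while Derl3 (−0.28, and −0.17 without CRS-WT-DR5-12D replicate 2), Edem1 (−0.17), Dnajb9 (−0.02), Syvn1 (−0.01) and Sel1l (0.01) overlapped. These 10 genes were picked with their values in view.

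The promoter of many such chaperones is known to carry the endoplasmic reticulum stress response element, CCAAT and CCACG spaced by 9 bases. A search for these blocks with any 9 bases between them on both strands of the RefSeq windows (GRCm38.p6) found it in 9 of the 21 listed genes with a window (42.9%), against 0.137% of 27025 genes. The median over the 9 was −0.36, with 7 entirely below CRS-WT, and that over the 12 without it was −0.25, with 6 entirely below. Among all tested genes, 17 hold it, with a median of −0.17, and 8 lay entirely below CRS-WT. The 17 include the 9 listed genes and the 8 include their 7, so these values are no separate support. Matches of 6 listed genes are shown with 20 bases on either side, capitals marking the 2 fixed blocks, in the orientation in which the motif reads.
Creld2, chr15:88819500-88819558, minus strand: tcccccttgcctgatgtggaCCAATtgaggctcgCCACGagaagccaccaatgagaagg
Hspa5, chr2:34772005-34772063, plus strand: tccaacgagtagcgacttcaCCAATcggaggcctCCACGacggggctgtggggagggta
Calr, chr8:84847055-84847113, plus strand: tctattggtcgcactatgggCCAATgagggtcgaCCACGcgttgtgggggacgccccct
Dnajc3, chr14:118937807-118937865, plus strand: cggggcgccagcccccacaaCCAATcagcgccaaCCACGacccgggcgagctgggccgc
Pdia6, chr12:17266471-17266529, plus strand: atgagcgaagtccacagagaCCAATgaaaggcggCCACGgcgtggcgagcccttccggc
Syvn1, chr19:6046512-6046570, plus strand: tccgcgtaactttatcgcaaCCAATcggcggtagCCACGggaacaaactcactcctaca
The log2 fold changes of these genes were −0.65 for Creld2, −0.70 for Hspa5, −0.50 for Calr, −0.41 for Dnajc3, a kinase inhibitor that is also a co-chaperone, −0.36 for the disulphide isomerase Pdia6 and −0.01 for the ubiquitin ligase Syvn1. The element stands 126, 65, 162, 105, 98 and 44 bases before their starts in that order. A match is a description of the letters in these windows and not of binding. The motif and the genes shown were chosen after the values were seen.

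Cytosolic heat shock genes had log2 fold changes below 0 in 22 of 22 members (21 without CRS-WT-DR5-12D replicate 1), against 48.4% of all genes. Their median was smaller, at −0.14 (−0.11 without CRS-WT-DR5-12D replicate 1). Of these genes, 7 lay entirely below CRS-WT (31.8%, against 11.4% of all genes). Hspe1, a co-chaperonin of mitochondria kept in this list, had 28.9, 33.9 and 38.9 FPKM in CRS-WT-DR5-12D and 52.2, 45.1 and 43.1 in CRS-WT (−0.46 ± 0.13, limma adjusted p 0.222). Hspb1, a small heat shock protein, had 1.48, 3.32 and 3.09 against 8.13, 5.33 and 3.71 (−0.88 ± 0.29). Cytosolic ribosomal protein genes had a median of −0.17 over 30 genes, with 15 entirely below CRS-WT and 0 above. That median was −0.17 without CRS-WT-DR5-12D replicate 1 and −0.09 without CRS-WT replicate 1, whose list mean of 7.44 on the log2 scale was the highest of the 9 libraries. Rpl13a had 6.60, 6.53 and 7.11 FPKM against 9.05, 8.86 and 9.01 (−0.37 ± 0.065, limma adjusted p 0.105), and Rps23 had 112, 120 and 127 against 227, 168 and 173 (−0.65 ± 0.13). Ribosomal protein genes have many processed copies, so their values are uncertain.

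Cholesterol synthesis genes were higher in CRS-WT-DR5-12D in the deposited FPKM, but not under TPM scaling. The median was 0.29 over 24 genes, 0.23 without CRS-WT-DR5-12D replicate 1 and 0.31 without CRS-WT replicate 1. Of these, 15 lay entirely above CRS-WT and 2 entirely below. Scaling to TPM put the list median at −0.05, against −0.33 for all genes. With the microRNA model Gm23935 left out of the TPM sum, a scaling chosen after seeing the data, it was 0.31. Idi1, which isomerises the isoprenoid building block, had 5.99, 6.15 and 4.83 FPKM in CRS-WT-DR5-12D and 3.38, 2.60 and 2.83 in CRS-WT (0.755 ± 0.112, limma adjusted p 0.0908). Insig1, the sterol-sensing anchor that is itself induced when sterols are low, had 26.3, 21.7 and 20.4 against 15.9, 14.3 and 15.8 (0.54 ± 0.10, limma adjusted p 0.127), and Sc5d, a late desaturase, had 17.4, 16 and 14.5 against 13, 11.9 and 11.2 (0.38 ± 0.083). In each of these the groups were apart. Of the 2 lower members, Abca1 exports cholesterol from the cell and had 2.75, 2.98 and 2.76 FPKM against 3.35, 3.94 and 3.86 (−0.30 ± 0.075). Acat2, the thiolase of the first step, picked with its value in view, had a log2 fold change of −0.11. A search of 18 listed genes with a window for a sterol regulatory element, TCAC and CCAC spaced by any 1 base, on both strands found it in 1, Hmgcs1 (5.56%, against 1.44% of all genes with a window).

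**Figure D4:**
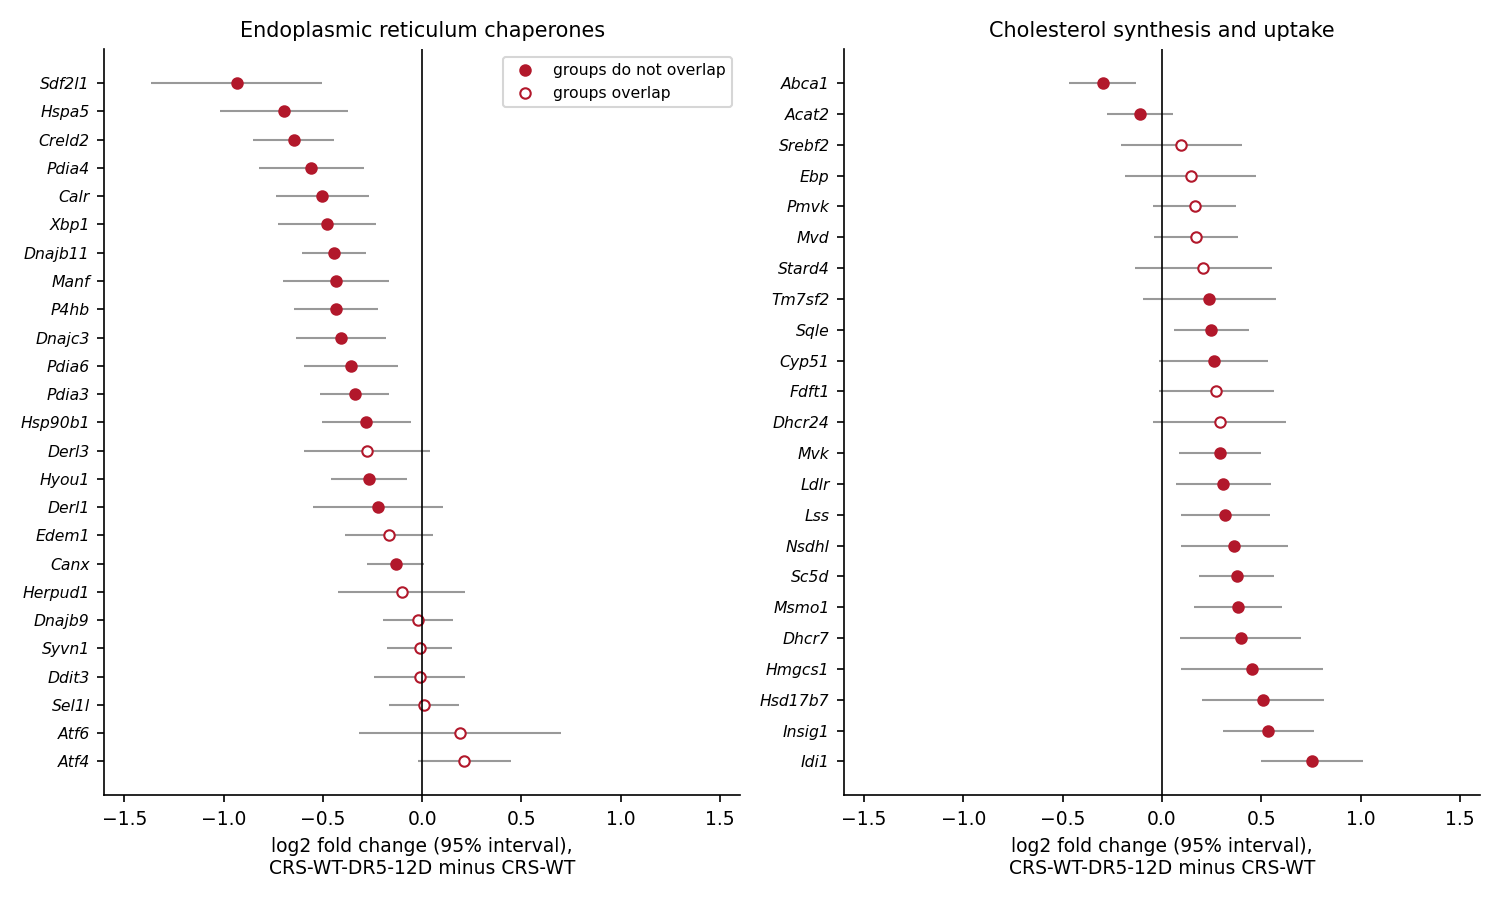
Log2 fold change with its 95% interval (CRS-WT-DR5-12D minus CRS-WT) of members of the endoplasmic reticulum chaperone list (left) and the cholesterol list (right); filled points are genes whose groups do not overlap. On the left 16 of 25 genes are filled and all of those lie below 0, and on the right all filled points but 2, Abca1 and Acat2, lie above 0. Under TPM scaling the right-hand median is −0.05, against −0.33 for all genes.

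Endothelial genes had log2 fold changes below 0 in 18 of 18 members (16 without CRS-WT-DR5-12D replicate 1), against 48.4% of all genes. Their median was −0.34 (−0.31 without CRS-WT-DR5-12D replicate 1), with 12 entirely below CRS-WT (66.7%, against 11.4% of all genes). Vwf, the clotting factor of vessel walls, had 0.226, 0.462 and 0.702 FPKM in CRS-WT-DR5-12D and 1.19, 1.62 and 1.35 in CRS-WT (−0.72 ± 0.14, limma adjusted p 0.127). The surface protein gene Ly6a had 17.7, 23.2 and 26.4 against 35.8, 45.2 and 42.8 (−0.86 ± 0.18), and the glucose transporter Slc2a1 of the blood-brain barrier had 16, 15.7 and 17.9 against 21.8, 26.5 and 22 (−0.475 ± 0.111). Pericyte and smooth muscle genes had a median of −0.19, which was −0.04 without CRS-WT-DR5-12D replicate 1 and −0.11 without CRS-WT replicate 2, and −0.34 by limma-voom; Rgs5, a G protein regulator of pericytes, had 13, 16.4 and 15.0 FPKM against 22.8, 25.8 and 23.4 (−0.66 ± 0.16). The blood gene Hbb-bs overlapped, with 113, 92.7 and 182 FPKM against 149, 46.2 and 70.8. Meningeal genes such as Col1a1, at 0.389, 1.93 and 1.15 FPKM against 8.06, 2.26 and 1.67, had a median of −0.40, which was −0.01 without CRS-WT-DR5-12D replicate 1 and −0.19 without CRS-WT replicate 1, −0.63 without CRS-WT-DR5-12D replicate 3, 0.044 with the dentate gyrus covariate and −0.85 by limma-voom.

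The median over 20 astrocyte genes was −0.12 (−0.08 without CRS-WT-DR5-12D replicate 1), and 5 lay entirely below CRS-WT. The lowest values were those of Gfap and Vim, intermediate filament genes that reactive astrocytes are known to induce. Gfap had 15.3, 71.7 and 71.5 FPKM in CRS-WT-DR5-12D and 168, 186 and 126 in CRS-WT (−1.85 ± 0.53, limma adjusted p 0.221). Vim had 3.42, 7.15 and 5.02 against 20.6, 14.9 and 11.7 (−1.45 ± 0.29, limma adjusted p 0.139), and the protease inhibitor Serpina3n, picked with its values in view, had 9.89, 27.4 and 22.8 against 36.8, 61.0 and 35.7. In Gfap, CRS-WT-DR5-12D replicate 1 was the lowest library, and without it the log2 fold change was −1.13. Plpp3, a lipid phosphatase, and Sox9, a transcription factor of astrocytes, also lay entirely below, at 85.7, 96.5 and 89.6 against 115, 115 and 107 FPKM and at 5.91, 5.95 and 6.23 against 8.09, 7.04 and 7.98. Oligodendrocyte precursor genes had a median of −0.09 over 14 (−0.047 without CRS-WT-DR5-12D replicate 1, −0.023 without CRS-WT replicate 1 and −0.19 without CRS-WT replicate 2), with 4 entirely below CRS-WT and 1 above. Gpr17, a receptor of committed precursors, had 9.66, 8.94 and 10 FPKM against 20.4, 23.8 and 18.0 (−1.03 ± 0.13, limma adjusted p 0.0811). Bmp4 had 0.645, 1.24 and 1.45 against 3.22, 2.97 and 2.19 (−0.86 ± 0.18), while Pdgfra, the receptor of the early precursor, had 4.37, 4.39 and 4.54 against 3.81, 3.11 and 3.25 and lay above CRS-WT. Myelin genes had a median of −0.17, which was 0.02 without CRS-WT-DR5-12D replicate 1, −0.35 without its replicate 2, −0.07 without its replicate 3 and −0.05 without CRS-WT replicate 1.

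Several neuronal lists depended on CRS-WT-DR5-12D replicate 1, the library with low Prox1. Granule cell genes had a mean on the log2 scale of 1.98, 2.90 and 2.86 in CRS-WT-DR5-12D and 3.07, 2.97 and 2.79 in CRS-WT. Their median log2 fold change of −0.36 became −0.0054 without replicate 1, 0.075 with the dentate gyrus covariate and −0.55 by limma-voom. The covariate is the mean of this same list, and replicate 1 was set apart by Prox1, a member of it. Medians near 0 in those fits therefore follow in part from how the fits were built. C1ql2, a synaptic organiser of granule cells, was at 0.973, 38.0 and 37.0 FPKM against 40.1, 29.0 and 31.9. Pyramidal cell genes of CA1, CA2 and CA3 had a summed FPKM of 371, 789 and 933 against 816, 898 and 958. Their median was −0.14, which was 0.05 without replicate 1 and −0.34 without CRS-WT-DR5-12D replicate 2. Ventral hippocampus genes had list means of 2.276, 3.085 and 3.332 against 3.001, 3.025 and 3.396. Their summed FPKM was 160, 196 and 257 against 156, 171 and 239, where replicate 1 was not the lowest. Their median of −0.20 became 0.09 without replicate 1. Neurogenesis genes had a median of −0.32, which was −0.065 without replicate 1. Immediate early genes, which neuronal firing induces within minutes, had list means of 4.23, 3.37 and 3.34 against 3.35, 3.01 and 3.26. Their median of 0.49 over 22 genes became 0.19 without replicate 1 and 0.15 with the dentate gyrus covariate. Arc, a synaptic regulator picked with its values in view, had 118, 41.6 and 34.9 FPKM against 26.2, 22.9 and 31.0, and Junb, a transcription factor, had 62.6, 30.6 and 31.3 against 23.9, 20.1 and 27.3. In both the groups were apart, and CRS-WT-DR5-12D replicate 1 was the highest of the 6 libraries. Ptgs2, the inducible prostaglandin synthase, lay the other way, at 4.38, 4.28 and 2.97 FPKM against 5.11, 7.11 and 5.30 (−0.49 ± 0.19). The part of the dentate gyrus, pyramidal cell and ventral hippocampus content in these results was not tested.

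Genes of the GABA-A receptor had a median of 0.19 over 13 genes (0.12 without CRS-WT-DR5-12D replicate 1 and 0.32 without its replicate 3), with 5 entirely above CRS-WT and 0 below. Under TPM scaling the median was −0.16, against −0.33 for all genes. Gabrb2, a main β subunit, had 12.6, 12.3 and 9.08 FPKM in CRS-WT-DR5-12D and 6.92, 8.28 and 7.34 in CRS-WT (0.53 ± 0.16, limma adjusted p 0.243). Gabrd, the subunit of receptors outside synapses, had 20, 8.50 and 9.06 against 7.80, 5.34 and 6.82, with replicate 1 again highest. Neuropeptide genes had a median of 0.19 over 20 genes (0.076 without CRS-WT-DR5-12D replicate 1, 0.31 without its replicate 2, 0.10 without CRS-WT replicate 1, −0.11 under TPM scaling). The smallest p among them was that of Chgb, a secretory granule protein, which lay entirely below CRS-WT at 118, 126 and 119 FPKM against 167, 154 and 146 (−0.36 ± 0.14, limma adjusted p 0.330). Sst, somatostatin, had 286, 265 and 328 against 173, 215 and 264 (0.44 ± 0.21, limma adjusted p 0.409, and 0.29 without CRS-WT replicate 1) without overlap. Respiratory chain genes of the nucleus had a median of 0.12 over 26 genes (0.14 without CRS-WT-DR5-12D replicate 1), with 12 entirely above and 1 below; under TPM scaling it was −0.25. Ndufb3, a subunit of complex I, had 127, 141 and 138 FPKM against 97.2, 94.8 and 93.8 (0.50 ± 0.14, limma adjusted p 0.220), and Uqcrc2, of complex III, had 92.6, 108 and 98.6 against 73.3, 82.9 and 80.6 (0.33 ± 0.11). The 13 genes of the mitochondrial genome had a median of 0.19, which was −0.0044 without CRS-WT-DR5-12D replicate 1 and −0.18 under TPM scaling. The smallest p was that of mt-Atp8, a subunit of ATP synthase, with 5.61, 1.81 and 2.71 FPKM against 1.44, 1.30 and 1.36 (0.79 ± 0.31, limma adjusted p 0.327, and 0.45 without CRS-WT-DR5-12D replicate 1), without overlap. The next, mt-Nd1 of complex I, had 7810, 6517 and 4285 FPKM against 5115, 4017 and 3823 and overlapped between the groups.

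**Figure D5:**
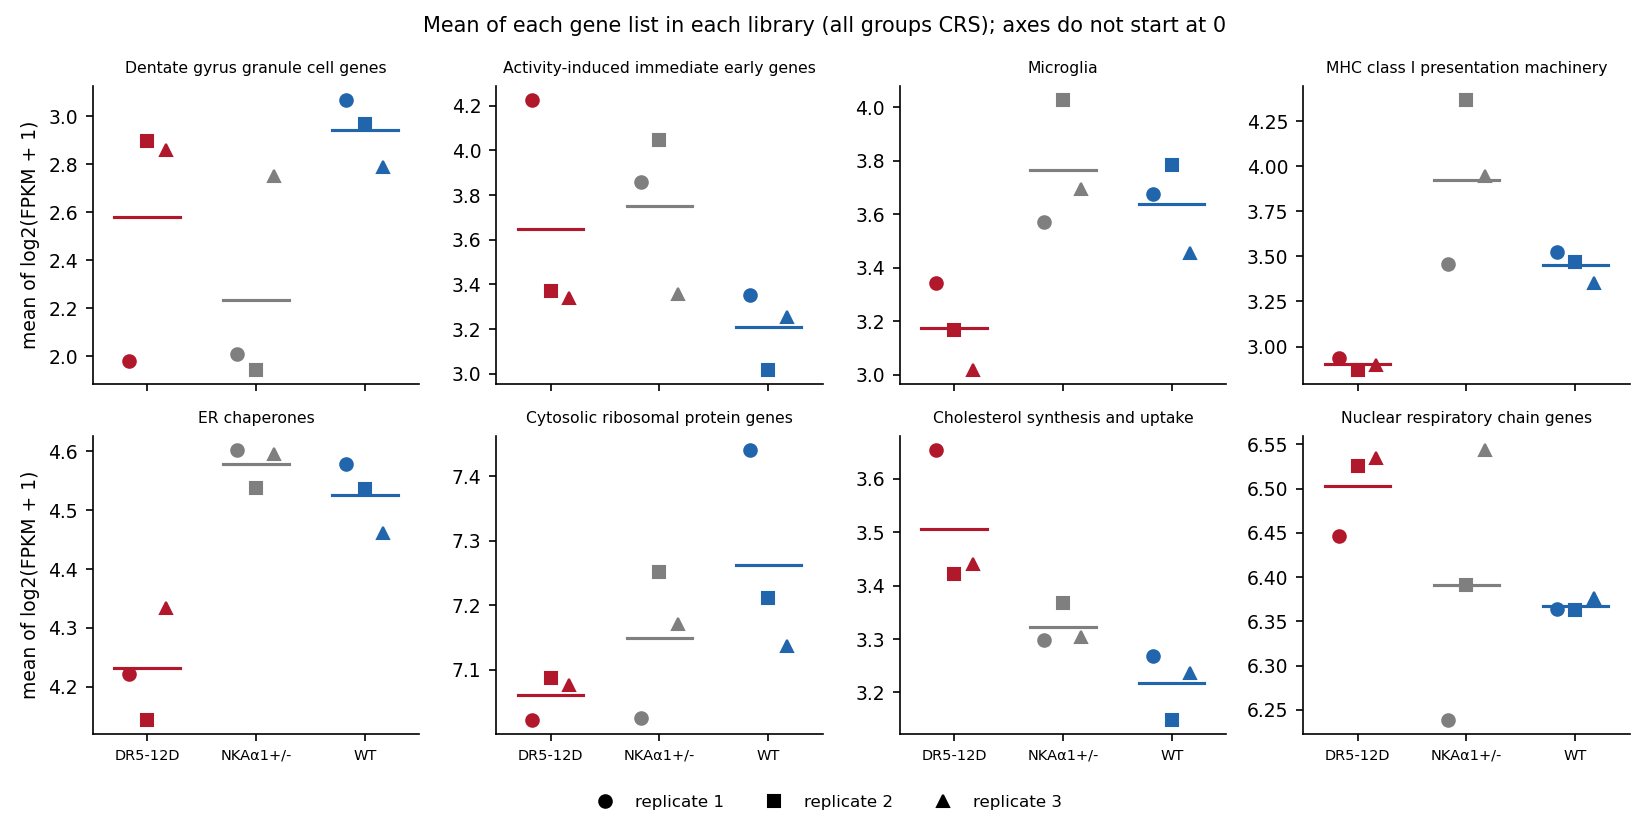
Mean log2(FPKM + 1) of 8 gene lists in each library; point shapes are replicates, lines are group means, and axes do not start at 0. CRS-WT-DR5-12D replicate 1 stands apart from its group for granule cell genes (1.98 against 2.90 and 2.86) and immediate early genes, while the 3 CRS-WT-DR5-12D libraries lie together below CRS-WT for the microglial, class I and endoplasmic reticulum lists and above it for cholesterol and nuclear respiratory genes. Under TPM scaling the median log2 fold changes of the last 2 lists are −0.05 and −0.25, against −0.33 for all genes.

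Among sodium pump genes, Atp1b1, which encodes a β subunit that helps to bring the pump to the membrane, had 346, 463 and 443 FPKM in CRS-WT-DR5-12D and 372, 428 and 443 in CRS-WT (0.0018 ± 0.15, interval from −0.34 to 0.35), which bounds the difference without showing that there is none. The 16 pump subunits and partners had a median of 0.048 (0.098 without CRS-WT-DR5-12D replicate 1). Under TPM scaling it was −0.30, against −0.33 for all genes. Of the 16, 3 lay entirely below CRS-WT (18.8%) and 1 entirely above (6.25%), against 11.4% each of all genes. The regulator Fxyd1, or phospholemman, had 14.2, 17.9 and 20.7 FPKM against 29.8, 32.7 and 25.8 (−0.72 ± 0.14, limma adjusted p 0.127), Fxyd3 had 4.77, 5.48 and 5.12 against 8.40, 7.76 and 6.52 (−0.48 ± 0.16), and Atp1b3 had 31.3, 31.1 and 31.0 against 36.3, 32.3 and 35.4 (−0.15 ± 0.073). The 17 Shc, Src and pump signalling genes had a median of 0.019 (−0.0092 without CRS-WT-DR5-12D replicate 1, and −0.28 under TPM scaling, against −0.33 for all genes), with 4 entirely above and 4 entirely below (23.5% each, against 11.4% each of all genes). Besides Shc4 these include Src itself, picked with its values in view, with 24.3, 30 and 31.1 FPKM against 33.5, 32.9 and 33.3 (−0.22 ± 0.090, and −0.12 without CRS-WT-DR5-12D replicate 1), its relative Fyn with 24.0, 26.5 and 24.9 against 30.2, 32.0 and 29.5 (−0.27 ± 0.068), and the scaffold Cav1 with 2.77, 3.87 and 2.74 against 5.89, 4.78 and 5.65 (−0.65 ± 0.16). Shc2, picked with its values in view, had 12.6, 10.7 and 13.2 against 8.70, 8.36 and 10.1.

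Beside CRS-NKAα1+/-, of which 2 libraries had Prox1 at 1.28 and 0.90 FPKM, more genes were called by adjusted p in the fit of all 9 libraries. By limma in the same fit, 2 genes were higher in CRS-WT-DR5-12D (0.0113%) and 89 lower (0.501%) at an adjusted p under 0.05. Without adjustment, 1568 genes had a p under 0.05 here and 2314 against CRS-WT, and a fit of only 2 groups called 5 genes here and 41 there. This comparison shares its CRS-WT-DR5-12D libraries with the one above, so the values are given side by side, with no overlap between the calls counted. C1qa was at 63.7, 48.1 and 56.4 FPKM in CRS-WT-DR5-12D and at 189, 247 and 156 in CRS-NKAα1+/-, a log2 difference of −1.78 (limma adjusted p 0.0166). Fcgr3 was at 10.8, 7.89 and 7.66 against 37.3, 37.4 and 34.9 (−1.95, limma adjusted p 0.00622), Ctss at 60.7, 52.3 and 40.8 against 111, 145 and 132 (−1.33, limma adjusted p 0.0173), and H2-D1 at 15.4, 15.5 and 15.7 against 40.4, 94.3 and 68.1 (−1.97, limma adjusted p 0.0256). Creld2, at 8.19, 7.99 and 9.93 against 15.2, 13.9 and 15.9, passed as well (−0.72, limma adjusted p 0.0216). These 5 genes were picked with their values in view, from genes already named as lying entirely below CRS-WT. Their place below CRS-WT thus follows from the choice. All 5 fell here, and in each every CRS-WT-DR5-12D library lay below every CRS-NKAα1+/- library. Opalin, a protein of myelin loops, rose, with 13.6, 22.8 and 13.3 FPKM against 4.14, 4.30 and 6.48 (1.54, limma adjusted p 0.0287). Genes called against CRS-WT did not pass this test: Shc4 was at 11.3, 10.8 and 11 FPKM against 12.1, 12.1 and 10.1 (−0.04, limma adjusted p 0.900), and Gm43701 at 7.41, 8.62 and 10.5 against 4.57, 5.42 and 8.88 (0.47, limma adjusted p 0.629). CRS-NKAα1+/- was itself above CRS-WT, by 0.75 in Shc4 and 2.23 in Gm43701 (limma adjusted p 0.0366 in each). It was above by 1.57 in Gm29629, 2.23 in Gm24187 and 1.35 in 4930535I16Rik (limma adjusted p 0.0569, 0.0595 and 0.0518). Their higher values are thus not particular to CRS-WT-DR5-12D. By list, the median in this comparison was −0.68 for microglia, −1.17 for complement, −1.14 for interferon-stimulated genes, −0.32 for endoplasmic reticulum chaperones and 0.18 for cholesterol synthesis. Other lists lay closer together or turned, with −0.055 for endothelial, −0.076 for ribosomal, −0.088 for heat shock and −0.12 for immediate early genes. Meningeal genes had 0.080 and granule cell genes 0.34. CRS-NKAα1+/- minus CRS-WT had a median of −0.28 for endothelial and 0.64 for immediate early genes. The calls depended on the libraries, with 1 to 194 genes when 1 library was left out.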

How the data were processed

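RNA of the ventral hippocampus was sequenced in 9 libraries, 3 per group, as grouped by the labels. The authors deposited FPKM per gene; RSEM 1.2.30, cutadapt, HISAT2 and GRCm38 are named in the submitters' processing notes, without their order. For all 17753 tested genes the FPKM values came out as whole fragments within a tolerance of 0.02, for 16215 at the exon length annotated in GENCODE and for 1538 at another whole-number length, which gave the implied depths. Genes with a mean of at least 0.5 FPKM over the 9 libraries, of 53465 listed, were tested with limma 3.58.1 (R 4.3.3, with a mean-variance trend) on log2(FPKM + 1), in 1 fit of all 9 libraries without a block. P-values were adjusted by Benjamini and Hochberg over all genes tested, and the procedure was tested on simulated data. Tables and figures used python 3.11.15 with matplotlib 3.10.9, pandas 2.3.3 and numpy 2.4.6. Named genes are those past an adjusted p of 0.05, the 10 higher and 10 lower genes of smallest p with a mean of at least 1 FPKM, no overlap and a gene name, the 4 members of smallest p in each list, and fixed cell type markers; others are marked in the text. The members and lists were chosen with earlier results of these data known. Promoter windows are those of RefSeq, GRCm38.p6. Alternatives were other pseudocounts, filters, scalings, fits and left-out libraries. One scaling, TPM without the microRNA model Gm23935, was chosen after seeing the data. Results of some genes are not reported here.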

Additional observations from a re-analysis of the deposited data

How the results depend on the processing

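The 5 calls in CRS-WT-DR5-12D set against CRS-WT moved with most settings. The count was 0 without a filter on low values and 0 by limma-voom, 41 with only these 2 groups in the fit, 975 under TPM scaling (28 higher and 947 lower), 10 under TPM without Gm23935 and 17 with a dentate gyrus covariate, and 0 to 21 when 1 library was left out. TPM scaling moved the median of all genes to −0.33, and Gm23935 alone stood at 115681 to 173123 FPKM in CRS-WT-DR5-12D and 15719 to 76096 in CRS-WT. Against CRS-NKAα1+/- the 91 calls became 30 without the filter, 5 with only these 2 groups, and 1 to 194 with 1 library left out. Genes without overlap numbered 4052 (2031 higher and 2021 lower), 8869 under TPM scaling (187 higher and 8682 lower) and 4052 to 6416 with 1 library left out. With the replicate number as a block, 0 genes were called against CRS-WT and 40 against CRS-NKAα1+/-. Same-numbered libraries of CRS-WT-DR5-12D and of CRS-WT had correlations of −0.08, 0.032 and 0.039 in their deviations from group means. Those of CRS-WT-DR5-12D and of CRS-NKAα1+/- had 0.45, −0.35 and 0.497. The labels do not say what the replicate number stands for, and whether it marks a batch was not tested. Among 92 named genes, 23 of 1831 values changed sign. Under TPM scaling these were Atf4 (−0.16), Atf6 (−0.14), Atp1b1 (−0.37), Cd59a (−0.067), Sel1l (−0.36) and Uqcrc2 (−0.035). Atf6 was −0.060, Sel1l −0.063 and Syvn1 0.0006 with the dentate gyrus covariate, Atp1b1 −0.019 and Sel1l −0.010 under quantile scaling, and Sel1l −0.058 without the 3 libraries of low Prox1. With 1 library left out, Atp1b1 ranged from −0.078 to 0.13, Ddit3 from −0.094 to 0.090, Dnajb9 from −0.042 to 0.016, Sel1l from −0.058 to 0.049 and Syvn1 from −0.070 to 0.036. The number of lists with a median below 0, 24 of 36, ranged from 19 to 35. It was 35 under TPM scaling and 24 under TPM without Gm23935, where all 36 lists kept their sign. The causes were not tested. With 3 libraries a group, small differences were not detectable.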
